A study of Nilaparvata lugens with 9 samples.

Results

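The miR-10, miR-993 and miR-iab miRNAs of the brown planthopper, *Nilaparvata lugens*, were followed in small RNA libraries of untreated short-winged (SW) female adults. Insects were taken 1, 3 or 5 days after emergence (1 d, 3 d and 5 d), with 3 whole-body libraries for each phase. All 3 phases share the morph, the field-derived population and the rice host, and insects were pooled within a sample, so no library stands for 1 animal. The phases were chosen by the study to look for miRNAs linked to reproduction. Members were all entries named miR-10, miR-993 or miR-iab, with no other number, on either arm and in every isoform, and each mature sequence was counted once. This gave 10 sequences (11 entries) of the 759 sequences (905 entries) in the expression table. They comprise 3 miR-10-5p, 3 miR-10-3p, 2 miR-993-5p, 1 miR-993-3p and 1 miR-iab-8-5p sequence. Together they held 148365 of the 19337134.5 reads on listed miRNAs, or 0.767%, with each sequence counted at the value of 1 entry.

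In insects such as *Drosophila* and *Tribolium*, these miRNAs are transcribed from within the Hox gene complexes, the clusters of homeobox genes that give body segments their identity. A hairpin precursor is cut into a 5p and a 3p strand, one of which is usually kept by Argonaute, and target mRNAs are recognised mainly through the seed, bases 2 to 8 of the mature strand. In *Drosophila*, miR-10 yields more 3p than 5p reads whereas *Tribolium* favours the 5p strand, and iab-4 and iab-8, read from opposite strands of one locus, repress the Hox gene *Ultrabithorax*. miR-993 is an arthropod relative of miR-10. None of these roles was measured here, and no annotation of the genome build used for the table was at hand, so the position of the planthopper hairpins relative to Hox genes was not analysed.

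The 5p sequences show how closely miR-10 and miR-993 are related, and they are printed 5′ to 3′ as DNA letters with the seed in capitals.
tca-miR-10-5p: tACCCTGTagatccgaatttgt
tca-miR-993-5p_R+3: tACCCTGTagatccgggcttatg
tcf-miR-993-5p_L-1R+1_1ss22TA: tACCCTGTggatccgggcttatg
dvi-miR-10-5p_1ss22TG: aCCCTGTAgatccgaatttgtg
pte-miR-10-5p_L-1R+2: aCCCTGTAgatccgaatttgtga
tca-miR-10-5p and tca-miR-993-5p_R+3 shared their first 15 bases, seed included, and differed at 4 of 22 positions (A16G, A17G, T18C and G21A, counted from the 5′ end, with the miR-10-5p base first). The seed ACCCTGT was therefore common to 3 members. The other pair, dvi-miR-10-5p_1ss22TG and pte-miR-10-5p_L-1R+2, starts 1 base later, and this shift gives both of them the seed CCCTGTA. From base 2 of tca-miR-10-5p, the dvi sequence matched it over all 21 shared bases. Prefixes name the miRBase species of the closest known miRNA (tca for *Tribolium castaneum*, for example), R and L with a number give bases gained or lost at the right and left end, and ss marks a substitution.

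The 3p strands and miR-iab-8-5p, printed in the same way, carry other seeds.
tca-miR-10-3p: cAAATTCGgttctagagaggttt
dvi-miR-10-3p_R+1_1: cAAATTCGgttctagagaggttta
dvi-miR-10-3p_R+1_2: cAAATTCGgttctagagaggtttc
tca-miR-993-3p: gAAGCTCGtctctacaggtatct
dme-miR-iab-8-5p_R-3: tTACGTATactgaaggtata
The 3 miR-10-3p sequences share the seed AAATTCG and differ only in an added last base. In contrast to the 5p strands, tca-miR-10-3p and tca-miR-993-3p had different seeds and were identical at 13 of 23 positions. The seed of tca-miR-993-3p (AAGCTCG) and that of dme-miR-iab-8-5p_R-3 (TACGTAT) occurred in no other sequence of the table.

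The build behind the table's positions is not named in any source at hand. By these positions the miR-10 hairpin lies on the minus strand of scaffold NW_019106192.1, with entries starting at 196362 and 196394. The miR-993 hairpin lies on the minus strand of NW_019105755.1 at 484856 and 484884, and the miR-iab-8 hairpin on the plus strand of NW_019114219.1 at 2560. No 2 of these hairpins shared a scaffold. Entries of dvi-miR-10-3p_R+1 were also listed on NW_019105675.1 at 134155 and on NW_019107302.1 at 87064. The sequence of tca-miR-10-3p occurred without mismatch in hairpins on 3 scaffolds, whereas that of tca-miR-10-5p occurred in hairpins on 1, so 3p reads could not be assigned to one hairpin. dvi-miR-10-5p_1ss22TG and both added 3p ends differed from their hairpins at the last base (T22G, G24A and G24C, with the hairpin base first and positions counted in the mature sequence). The tcf sequence of miR-993-5p differed from its hairpin by A9G. pte-miR-10-5p_L-1R+2 was listed without a genome position. Within 100000 bases of a member, 4 candidate miRNAs predicted by the authors were listed, namely PC-5p-166558_36, PC-5p-41_172656, PC-5p-194658_28 and PC-3p-206753_26.

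Library depth, at 1 entry per sequence, was between 972506 and 3184052 reads on listed miRNAs. The shallowest library was 1 d replicate 2. Against the mean of the other 1 d libraries, the median log2 ratio of (CPM + 1) in this library was -0.30, and 46 of 341 tested sequences (13.5%) were at or above a log2 ratio of 1. Muscle miRNAs (miR-1 and miR-133) summed to between 47230 and 66440 CPM, and the neuronal miR-124 to between 402 and 1724 CPM, so both tissues of a whole-body sample were represented in every phase. Levels are CPM, read counts scaled to a common library total, after scaling by trimmed mean of M-values (TMM). A read covers a whole mature miRNA, so levels were compared between miRNAs without division by length. Whether different sequences were captured equally was not measured, so comparisons between miRNAs or strands are of reads, not of molecules. Because the libraries are bulk samples, fewer cells with a miRNA and less of it per cell cannot be told apart. Whether the 3 libraries of a phase came from separate pools is not stated, and p-values then measure only the spread between these libraries.

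The main isoform, tca-miR-10-5p, was the most abundant member in 9 of 9 libraries. By mean level at 1 entry per sequence, which places sequences with split reads below their summed level, it ranked 19 among all sequences. It was at 8907, 23862 and 5106 CPM in 1 d replicates 1, 2 and 3, at 2472, 5235 and 6111 CPM in 3 d, and at 4900, 2696 and 7059 CPM in 5 d. Only 1 d replicate 2 stood far above the rest, since the other 1 d libraries lay within or just above the range of the later phases. Mean levels reached 12625 ± 9915 CPM in 1 d, 4606 ± 1899 CPM in 3 d and 4885 ± 2181 CPM in 5 d (SD, n = 3 libraries). Relative to 1 d, the log2 fold change from edgeR was -1.45 at 3 d (SE 0.59, adjusted p = 0.512) and -1.37 at 5 d (SE 0.59, adjusted p = 0.408). Without 1 d replicate 2 these values shrank to -0.60 and -0.52 (adjusted p = 0.993 and 0.816), and between 5 d and 3 d the log2 fold change was 0.08.

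**Figure D1:**
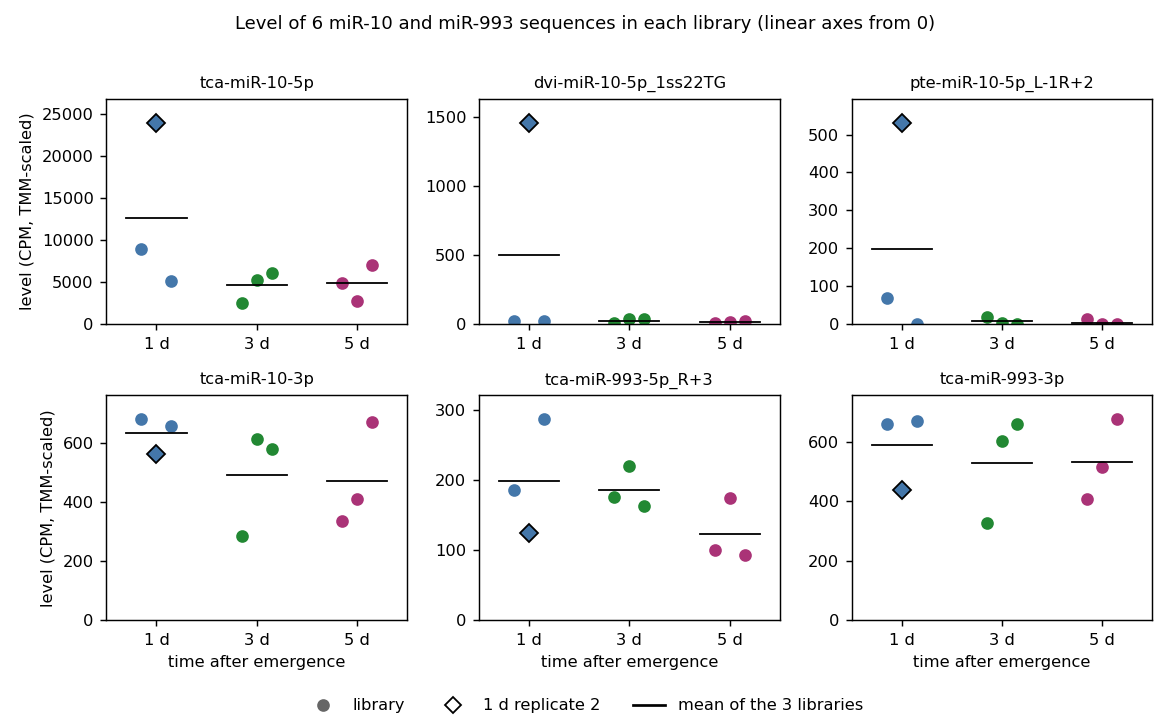
Level of 6 members in each of the 9 libraries, in TMM-scaled CPM on linear axes that start at 0, by time after emergence. Points are libraries, diamonds mark 1 d replicate 2 and lines are means of 3 libraries. The 3 miR-10-5p sequences (top) peaked in 1 d replicate 2, at 23862, 1457 and 530.1 CPM, while in tca-miR-10-3p and both miR-993 strands (bottom) this library was the lowest of 1 d.

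The isoforms of miR-10-5p that start 1 base later were rarer and more uneven. Neither of them occurred without mismatch in a listed hairpin, and whether they come from the miR-10 hairpin was not tested. dvi-miR-10-5p_1ss22TG was at 26.0, 1457 and 25.7 CPM in the 1 d libraries, at 5.85, 37.7 and 35.1 CPM in 3 d, and at 6.03, 15.5 and 24.2 CPM in 5 d. Apart from 1 d replicate 2, the 1 d values lay inside the 3 d range and just above the highest 5 d library, and 73.7% of all its 1609 reads came from that single library. pte-miR-10-5p_L-1R+2 was at 68.1, 530.1 and 0 CPM in 1 d, at 18.2, 2.58 and 1.5 CPM in 3 d, and at 12.8, 0 and 0 CPM in 5 d. It was thus absent from the reads of 3 libraries, which allows up to 3 reads in each, and 63.0% of its 684 reads belonged to 1 d replicate 2. In that library the level relative to the mean of the other 1 d libraries was 56.4-fold for the dvi sequence, 15.6-fold for the pte sequence and 3.41-fold for tca-miR-10-5p.

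As a share of miR-10-5p reads, the isoforms starting 1 base later made up 7.69% in 1 d replicate 2 (95% Wilson interval 7.34 to 8.06%, 1616 of 21019 reads). In the other 8 libraries this share was between 0.341% and 1.05%, and no interval of these libraries reached that of 1 d replicate 2. Intervals and limits from 0 reads cover counting error only, because the reads carry no molecular identifiers. The main isoform accordingly held 92.3% of miR-10-5p reads in 1 d replicate 2 and between 99.0% and 99.7% elsewhere. Mean shares of the main isoform reached 96.9 ± 4.0% in 1 d, 99.2 ± 0.184% in 3 d and 99.6 ± 0.122% in 5 d (SD, n = 3 libraries). The difference of 5 d from 3 d was 0.343 percentage points with no overlap of libraries, at an exact permutation p of 0.1, the smallest that 3 libraries against 3 allow (2-sided). For 3 d and 5 d against 1 d the exact permutation p was 0.6 and 0.2, and without 1 d replicate 2 the differences changed from 2.30 to -0.00091 and from 2.65 to 0.342 percentage points.

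The opposite strand, tca-miR-10-3p, did not share this excess. Its sequence also occurs in hairpins on scaffolds other than that of tca-miR-10-5p, so its reads cannot be assigned to a single hairpin. tca-miR-10-3p was at 679.9, 563.3 and 655.8 CPM in 1 d, at 284.8, 612.9 and 577.9 CPM in 3 d, and at 336.1, 411.0 and 671.5 CPM in 5 d. Here 1 d replicate 2 was the lowest of its phase (0.843-fold of the mean of the others), and the libraries of all phases overlapped. Without 1 d replicate 2, both remaining 1 d libraries lay above all 3 d libraries, but not above all of 5 d. The edgeR log2 fold change at 3 d was then -0.43 (adjusted p = 0.993). How many of all tested sequences separated in this way was not counted. Relative to 1 d and from all libraries, edgeR gave a log2 fold change of -0.36 at 3 d (SE 0.37, adjusted p = 1.00) and of -0.42 at 5 d (SE 0.37, adjusted p = 0.772). Between 5 d and 3 d it was -0.06, a value that turned positive under other scalings. The lengthened dvi-miR-10-3p_R+1_1 and dvi-miR-10-3p_R+1_2 were listed with 45 reads in each of their entries (dvi-miR-10-3p_R+1_1 has 2), with identical values in every library of between 0 and 6.20 CPM per entry, and did not pass the filter on low counts.

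miR-10 was read mostly from the 5p strand, but to a varying degree. Reads of the 3p strand made up 7.06%, 2.16% and 11.5% of miR-10 reads in the 1 d libraries, 10.3%, 10.6% and 8.65% in 3 d, and 6.44%, 13.2% and 8.70% in 5 d. The lowest share was again that of 1 d replicate 2 (95% Wilson interval 1.97 to 2.36%), below every other library. Mean 3p shares reached 6.89 ± 4.65% in 1 d, 9.86 ± 1.06% in 3 d and 9.43 ± 3.42% in 5 d (SD, n = 3 libraries). The 3 d mean exceeded that of 1 d by 2.97 percentage points and the 5 d mean did so by 2.54 points, while 5 d minus 3 d gave -0.433 points, all within the spread between libraries (exact permutation p of 0.4, 0.5 and 1.0, 2-sided). The same 3p sequence occurs in hairpins on 3 scaffolds, and these shares count all of its reads. Without 1 d replicate 2 the first pair of differences fell to 0.607 and 0.174 points.

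**Figure D2:**
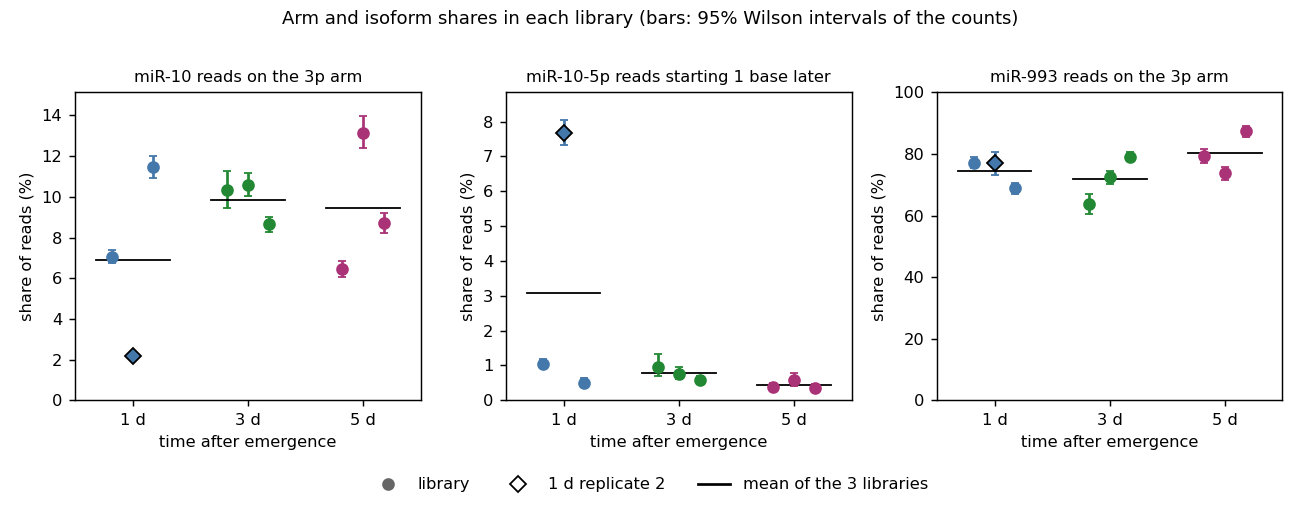
Share of reads in percent (linear axes from 0) in each of the 9 libraries, for the 3p strand of miR-10, the miR-10-5p isoforms that start 1 base later, and the 3p strand of miR-993. Points are libraries with 95% Wilson intervals, diamonds mark 1 d replicate 2 and lines are means of 3 libraries. In 1 d replicate 2 the miR-10 3p share was 2.16% and the share starting 1 base later 7.69%, both outside the range of the other 8 libraries, whereas its miR-993 3p share of 77.1% was not.

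In reads, miR-993 favoured the other strand. tca-miR-993-3p was at 660.0, 437.8 and 669.0 CPM in 1 d, at 327.7, 602.5 and 658.9 CPM in 3 d, and at 406.6, 517.1 and 675.8 CPM in 5 d. The phases overlapped over most of their ranges. Without 1 d replicate 2 both remaining 1 d libraries lay just above all of 3 d, with a log2 fold change of -0.31 at 3 d (edgeR, adjusted p = 0.993). From all libraries, the log2 fold change from edgeR was -0.15 at 3 d and -0.14 at 5 d relative to 1 d (SE 0.35 each, adjusted p = 1.00 and 0.930). Between the later phases it was 0.01. tca-miR-993-5p_R+3 was at 186.7, 124.2 and 287.1 CPM in 1 d, at 175.5, 220.7 and 163.9 CPM in 3 d, and at 100.2, 174.2 and 93.5 CPM in 5 d. It was lowest in 5 d replicates 1 and 3, yet 5 d replicate 2 overlapped with both earlier phases. The edgeR log2 fold change relative to 1 d was -0.10 at 3 d (SE 0.40) and -0.70 at 5 d (SE 0.40, adjusted p = 0.60), and that of 5 d relative to 3 d was -0.61 (SE 0.40, adjusted p = 0.992). Without 1 d replicate 2, the value at 5 d relative to 1 d was -0.97 and both remaining 1 d libraries lay above all 5 d libraries, with an adjusted p of 0.612.

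The 3p strand held between 63.8% and 87.5% of miR-993 reads, with means of 74.4 ± 4.76% in 1 d, 71.8 ± 7.70% in 3 d and 80.2 ± 6.89% in 5 d (SD, n = 3 libraries). Its share in 1 d replicate 2 (77.1%) lay among those of the other libraries. By exact permutation, p was 0.7 for 1 d and 3 d, 0.4 for 1 d and 5 d, and 0.2 for the later phases. The single-base variant tcf-miR-993-5p_L-1R+1_1ss22TA (A9G relative to tca-miR-993-5p_R+3) had 172 reads and between 3.10 and 15.3 CPM.

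dme-miR-iab-8-5p_R-3 was close to the limit of these libraries, with 68 reads in all. It was found in 7 of 9 libraries, at 3.01, 0 and 2.81 CPM in 1 d, 6.50, 0 and 2.40 CPM in 3 d, and 6.78, 2.09 and 7.43 CPM in 5 d. A count of 0 in 1 d replicate 2 and 3 d replicate 2 allows up to 3 reads in each. Reads were seen in all 5 d libraries, but their levels overlapped with those of the earlier phases, and the log2 fold change of 1.34 at 5 d relative to 1 d had an SE of 1.44 (adjusted p = 0.845 from edgeR). No difference between phases was detectable at this depth.

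By mean level over the 9 libraries, tca-miR-10-5p (7372 CPM) was followed by tca-miR-993-3p (550.6 CPM) and tca-miR-10-3p (532.6 CPM), then dvi-miR-10-5p_1ss22TG (181.5 CPM), tca-miR-993-5p_R+3 (169.6 CPM) and pte-miR-10-5p_L-1R+2 (70.4 CPM). The remaining members were the tcf variant of miR-993-5p (8.50 CPM), dme-miR-iab-8-5p_R-3 (3.45 CPM) and the lengthened 3p sequences (2.42 CPM each). tca-miR-993-3p and tca-miR-10-3p did not differ beyond their spread, the former being higher in 6 of 9 libraries. The place of dvi-miR-10-5p_1ss22TG above tca-miR-993-5p_R+3 rested on 1 d replicate 2, the only library in which it was higher, and its mean over the other 8 libraries was 22.01 CPM. Without that library the mean of pte-miR-10-5p_L-1R+2 was 12.9 CPM, and its place above the tcf variant (8.79 CPM) held in 4 of 9 libraries, or 3 of 8 without it.

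Across all sequences, no member was called in any comparison by edgeR at an adjusted p below 0.05. Over the 341 tested sequences, 8 of them members, the percentage called was 0.0 between 1 d and 3 d, 1.47 between 1 d and 5 d, 0.0 between the later phases and 1.17 in the test of all 3 phases. DESeq2 gave an adjusted p to 7 of the 8 members in each pair of phases, dvi-miR-10-5p_1ss22TG having none, and to 5 members over all phases. It called 0 of them, against backgrounds of 1.79% between 1 d and 3 d, 3.88% between 1 d and 5 d, 0.597% between the later phases and 5.41% over all phases. limma with a pseudocount of 1 called 0 of 8 members, against 0.293%, 0.88%, 0.0% and 0.293% in the same order, and with a pseudocount of 10 it called 0 of 8 against 0.0%, 1.17%, 0.0% and 0.0%. At an unadjusted p below 0.05, 2 of the 8 tested members were lower at 3 d than at 1 d (tca-miR-10-5p and dvi-miR-10-5p_1ss22TG, background 8.5%) and 3 were lower at 5 d than at 1 d (these and pte-miR-10-5p_L-1R+2, background 11.4%), compared with 0 between the later phases (2.35%) and 3 over all phases (8.21%). The comparisons with 1 d share the 1 d libraries and are not independent. The median log2 fold change of the 8 tested members relative to 1 d was -0.26 at 3 d and -0.71 at 5 d, beside 0.06 and 0.05 over all tested sequences, and for the later phases it was -0.33 beside -0.04.

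When low counts were not filtered out, edgeR called the 3 miR-10-5p sequences lower at 3 d than at 1 d (2.5% of all 759 sequences called) and lower at 5 d than at 1 d (3.43%). It then called 3 members over all phases (3.56%) and 0 between the later phases (0.264%). With 1 d replicate 2 also left out, 0 members were called, against backgrounds of 0.271% at 3 d and 1.08% at 5 d relative to 1 d and 1.35% over all phases. The calls of the miR-10-5p sequences therefore needed both the unfiltered table and that library. For dvi-miR-10-5p_1ss22TG, the log2 fold change of -4.24 (SE 1.56) at 3 d relative to 1 d became 0.04 (SE 0.83) without it, and that of -5.05 (SE 1.63) at 5 d became -0.75 (SE 0.83). pte-miR-10-5p_L-1R+2 went from -4.78 (SE 2.26) to -2.24 (SE 2.09) and from -5.46 (SE 2.33) to -3.04 (SE 2.12). Summed over its isoforms, miR-10-5p had log2 fold changes of -1.55 and -1.47, which became -0.68 and -0.58.

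**Figure D3:**
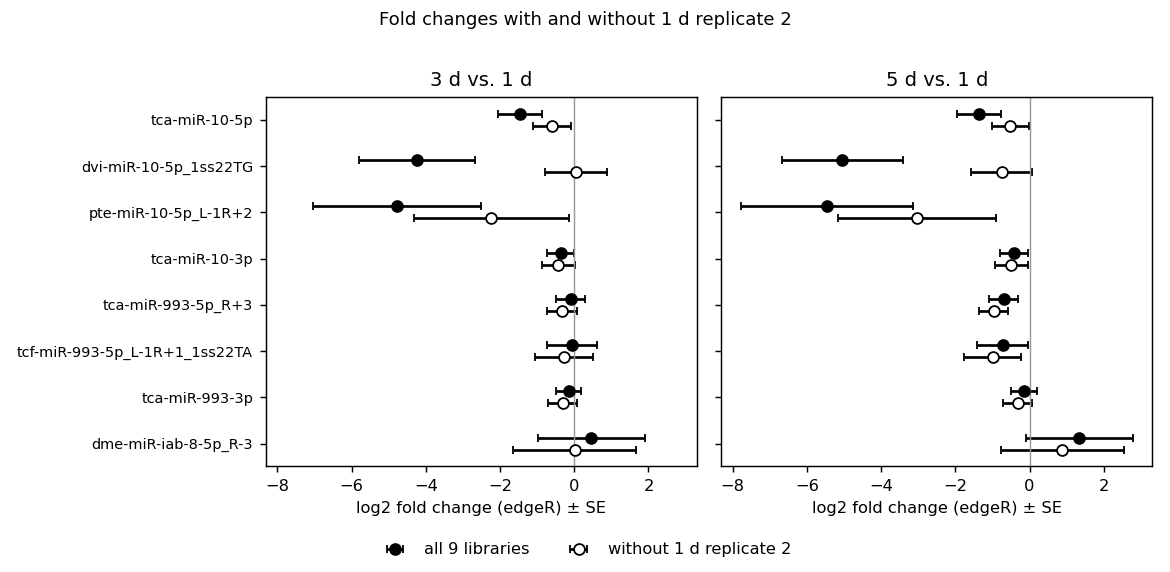
Log2 fold change from edgeR with its standard error for the 8 tested members at 3 d (left) and 5 d (right) relative to 1 d, from all 9 libraries (filled) and without 1 d replicate 2 (open). The 3 miR-10-5p sequences moved towards 0, for example from -4.24 to 0.04 for dvi-miR-10-5p_1ss22TG, while at 3 d tca-miR-10-3p moved from -0.36 to -0.43, tca-miR-993-3p from -0.15 to -0.31, tca-miR-993-5p_R+3 from -0.10 to -0.33 and dme-miR-iab-8-5p_R-3 from 0.46 to 0.02, each by less than its standard error.

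As a share of all listed reads, at 1 entry per sequence, the family made up 1.00%, 2.26% and 0.623% in the 1 d libraries. It made up 0.386%, 0.672% and 0.791% in 3 d, and 0.604%, 0.401% and 0.860% in 5 d. The 1 d mean of 1.29 ± 0.855% (SD, n = 3 libraries) exceeded the 3 d and 5 d means of 0.617 ± 0.208% and 0.622 ± 0.230% by less than its own SD, with exact permutation p of 0.3 and 0.2. Without 1 d replicate 2 the differences of -0.677 and -0.672 percentage points fell to -0.195 and -0.190.

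The excess in 1 d replicate 2 was set beside that of all tested sequences. Among these, 29 had a log2 ratio at or above the 1.77 of tca-miR-10-5p, 9 at or above the 3.92 of pte-miR-10-5p_L-1R+2 and 5 at or above the 5.76 of dvi-miR-10-5p_1ss22TG, these members included. The ratios of tca-miR-10-3p (-0.25), tca-miR-993-3p (-0.60) and tca-miR-993-5p_R+3 (-0.93) lay between the quartiles of -1.06 and 0.21. The highest ratio of all was that of api-miR-100_R-1_1ss16AT, an isoform of miR-100 (4009 CPM in this library, 12.5 and 19.2 CPM in the other 1 d libraries). Between it and dvi-miR-10-5p_1ss22TG lay tcf-miR-125_1ss22AT (6.78), the candidate PC-5p-160875_38 (6.62) and isc-miR-96_R-1 (5.999). The miR-100 isoform was listed without a genome position, and the dvi and pte sequences had no exact match in a listed hairpin. tca-miR-10-5p, also high in 1 d replicate 2, matched its hairpin without mismatch. Such a match does not show where the added reads came from, and their source was not tested. The library was also the shallowest of the 9. The part of depth, or of missing matches, in the excess was not tested.

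**Figure D4:**
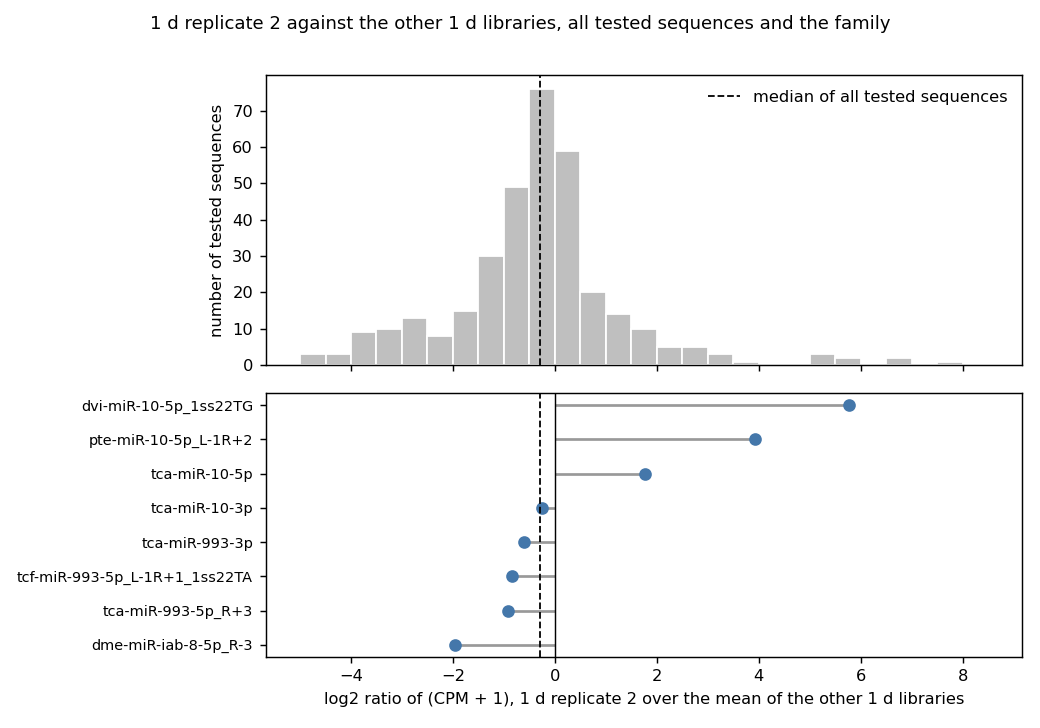
Log2 ratio of (CPM + 1) in 1 d replicate 2 over the mean of the other 1 d libraries, as a histogram of the 341 tested sequences (top, number of sequences per bin) and for the 8 tested members (bottom). The dashed line is the median of all tested sequences (-0.30). The 3 miR-10-5p sequences had ratios of 1.77, 3.92 and 5.76, and the other 5 members lay below 0.

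miR-100 has a sequence close to that of miR-10, and in many insects it lies in one cluster with let-7 and miR-125, which rise in flies with the metamorphic hormone ecdysone. Of 234 non-member sequences with a mean of at least 10 CPM, the one whose log2 (CPM + 1) followed that of summed miR-10-5p most closely over the 9 libraries was tca-miR-125-5p_R-1_1ss16CT, with Pearson's r of 0.969, and 0.912 without 1 d replicate 2. Next came tca-miR-100-5p_R-2, with r of 0.866 and 0.736. The third, tur-miR-263a-5p_R-1_1ss12AT (r of 0.80), had 130.4 CPM in 1 d replicate 2 and 0 in every other library. These values describe libraries that share depth and scaling, and they carry no test. tca-miR-125-5p_R-1_1ss16CT was at 26810 CPM in 1 d replicate 2 and at no more than 7758 CPM elsewhere. For let-7, the 8 sequences summed to between 11480 and 92580 CPM in 1 d, with a median of 18220 CPM, and to medians of 9470 CPM in 3 d and 8982 CPM in 5 d.

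Among these relatives, edgeR called 0 of 2 miR-100, 0 of 4 tested let-7 and 0 of 2 miR-125 sequences in any pair of phases in either direction. Their most abundant sequences had log2 fold changes of -0.79 (tca-miR-100-5p_R-2), -1.40 (tca-let-7-5p_R+1) and -1.35 (tca-miR-125-5p_R-1_1ss16CT) at 3 d relative to 1 d, with adjusted p of 0.495, 0.495 and 0.512. For the 2 tested miR-100 sequences, the median log2 fold changes at 3 d and at 5 d were -3.41 and -4.27. Medians were -2.22 and -2.14 for the 4 tested let-7 sequences and -2.88 and -3.46 for the 2 of miR-125. Over all tested sequences they were 0.06 and 0.05. The miR-100, let-7 and miR-125 lists each include sequences that were high in 1 d replicate 2. A median of 2 lies midway between unlike values here and describes neither sequence. Likewise 0 of 7 tested muscle miRNAs and 0 of 1 tested miR-124 sequence were called, with medians of -0.17 and -0.47 for the former and log2 fold changes of 0.14 and 0.56 for the latter. Within the family, the 3p strands of miR-10 and miR-993 followed each other over the 9 libraries (r of 0.892, and 0.971 without 1 d replicate 2). The 5p and 3p strands of miR-10 did so less closely (r of 0.567 and 0.795), and those of miR-993 less still (r of 0.262 and 0.203). For miR-10 the strands may cover unlike sets of hairpins. The 3p sequence occurs in hairpins on 3 scaffolds, whereas the 5p sum leaves out the candidate PC-5p-41_172656. Between the 5p strands of miR-10 and miR-993, which share their seed, r was -0.298 and -0.154. These values again describe libraries that share their scaling.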

How the data were processed

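Small RNA of 9 whole-body libraries was analysed from one table with 1 row per miRNA and precursor. The authors sequenced gel-selected small RNA, cleaned the reads with ACGT101-miR, removed mRNA, structural RNA and repeats, and searched miRBase and the planthopper genome, whose build the sources used here do not give. Sample labels instead describe a paired-end mRNA protocol. The deposited raw columns hold estimated counts, and where a mature sequence is listed at 2 precursors its reads are split evenly between them. Part reads also occurred at 1 precursor, as for dvi-miR-10-3p_R+1_2, with values identical to those of dvi-miR-10-3p_R+1_1. How such reads were shared was not resolved, so these 2 members may not hold separate reads. The normalized columns are a signal: the deposited raw value times one factor of the authors per library. Lengths, start positions and hairpin energies are other values, used as deposited.

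Each mature sequence was counted at the value of 1 entry, which left 759 sequences. After rounding, counts of all 9 libraries went into edgeR 4.0.16 under R 4.3.3 (legacy quasi-likelihood F-test, TMM scaling, default filter). Calls needed an adjusted p (Benjamini-Hochberg, over all tested sequences) below 0.05. An SE is the absolute log2 fold change over the square root of F. Shares were compared by exact 2-sided permutation tests. Members with a mean of at least 10 CPM are given by library, the others by range and counts. Alternatives were DESeq2 1.42.0, limma 3.58.1 on the log2 signal (pseudocount 1 or 10), other scalings and filters, an unadjusted p, the study's own test, fits on 6 libraries, a replicate block, distinct names and each library left out. Summing reads over entries, adding PC-5p-41_172656 to the 5p strand, and dropping both the filter and 1 d replicate 2 were added after the data had been seen. Members and lists were chosen with earlier results of these data known. The analysis was run in R and Python 3.11.15 (scipy 1.17.1). The edgeR fit was checked on simulated counts for 5 d relative to 1 d, and the permutation test on small sets of known values.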

Additional observations from a re-analysis of the deposited data

How the results depend on the processing

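Counts of called members rose above 0 in 6 cases: 3, 3 and 3 without a filter (3 d and 5 d relative to 1 d, and all phases) and 2, 3 and 3 at an unadjusted p. They were 0 under each other setting, every left-out library included. Over all sequences, DESeq2 called 6, 13 and 2 for the 3 pairs of phases where edgeR called 0, 5 and 0. Deviations of libraries with the same replicate number had r between -0.385 and 0.417, and those with different numbers between -0.513 and 0.496. With 3 libraries per phase these values cannot decide whether the numbers pair libraries. The replicate block called 0 members, with log2 fold changes of -1.44 and -1.23 for tca-miR-10-5p. Small fold changes reversed sign, and the cause was not tested. For tca-miR-10-3p between 3 d and 5 d (-0.06) the value was 0.017 with DESeq2, 0.098 and 0.096 with limma (pseudocounts 1 and 10), 0.018 with DESeq2 size factors, 0.082 with the authors' factors, 0.0058 with reads summed over entries and 0.011 from 6 libraries, and for summed miR-10-3p it was 0.084 and 0.083 with limma and 0.068 with the authors' factors. Scaling by library totals gave 0.13 for tca-miR-993-5p_R+3, 0.13 for summed miR-993-5p, 0.054 for tca-miR-993-3p and 0.17 for the tcf variant at 3 d relative to 1 d, and 0.031 and -0.022 for tca-miR-993-3p at 5 d relative to 1 d and to 3 d. The tcf variant at 3 d was at 0.028 and 0.00073 with limma (pseudocounts 1 and 10) and 0.0044 without a filter, where tca-miR-993-3p was at -0.015 between 3 d and 5 d. Without a filter and without 1 d replicate 2, dme-miR-iab-8-5p_R-3 was at -0.077 and dvi-miR-10-5p_1ss22TG at 0.023 at 3 d relative to 1 d.

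With each library left out in turn, signs reversed within these ranges. At 3 d relative to 1 d, log2 fold changes ran from -0.67 to 1.09 (dme-miR-iab-8-5p_R-3), -0.33 to 0.16 (tca-miR-993-5p_R+3), -0.43 to 0.19 (summed miR-993-5p), -0.35 to 0.10 (tca-miR-993-3p), -5.01 to 0.040 (dvi-miR-10-5p_1ss22TG) and -0.28 to 0.29 (the tcf variant). At 5 d relative to 3 d they ran from -0.28 to 0.41 (tca-miR-10-5p), -0.28 to 0.44 (summed miR-10-5p), -0.39 to 0.14 (tca-miR-10-3p), -0.41 to 0.15 (summed miR-10-3p), -0.24 to 0.21 (tca-miR-993-3p) and -6.85 to 1.08 (pte-miR-10-5p_L-1R+2, with the lowest value without 5 d replicate 1). In percentage points, the 3p share of miR-10 differed by -2.30 to 1.06 between 3 d and 5 d, the main-isoform share by -0.00091 (without 1 d replicate 2) to 3.59 between 1 d and 3 d, and the family's share of reads by -0.114 to 0.115 between 3 d and 5 d. No other tested value lost or gained a call, apart from tca-miR-10-5p, its sum and both isoforms that start 1 base later, which passed the threshold without a filter.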

Other observations

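The candidate PC-5p-41_172656, whose hairpins lie at the positions that also list dvi-miR-10-3p_R+1, carries the miR-10 seed ACCCTGT and matched tca-miR-10-5p at 20 of 22 positions (A11T and A17G, with the miR-10-5p base first). Its sequence differed from each of its listed hairpins by T14C, with the hairpin base first. The candidate was chosen after its values were seen, because the name rule leaves it out.
PC-5p-41_172656: tACCCTGTagttccgagtttgt
Per entry it was at 4419 ± 1000 CPM in 1 d, 4003 ± 893 CPM in 3 d and 4550 ± 1145 CPM in 5 d (SD, n = 3 libraries). It is listed at 2 precursors, and its reads were split between them. Summed over both entries it averaged 8837, 8005 and 9101 CPM in the 3 phases, beside 12625, 4606 and 4885 CPM of tca-miR-10-5p. In 1 d replicate 2 it was 0.714-fold of the mean of the other 1 d libraries, in contrast to the 3.41-fold of tca-miR-10-5p.

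With its reads counted on the 5p strand, the 3p share of miR-10 fell to 3.21 ± 1.46% in 1 d, 3.74 ± 0.694% in 3 d and 3.39 ± 1.14% in 5 d (SD, n = 3 libraries), and it was 1.71% in 1 d replicate 2, still the lowest of the 9 libraries. The 3 d and 5 d means then exceeded that of 1 d by 0.529 and 0.181 percentage points, and without 1 d replicate 2 these differences turned to -0.224 and -0.572 points. A further candidate, PC-5p-194658_28, differed from PC-5p-41_172656 by C4T, a change inside the seed, and did not exceed 5.88 CPM. On the miR-993 hairpin, PC-5p-166558_36 is tca-miR-993-5p_R+3 with 1 more base and had reads in 2 libraries each of 1 d and 3 d, at up to 6.83 CPM, and 0 reads in 5 d, which allows up to 3 reads in each library.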
